A study of Homo sapiens with 4 samples.

Results

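The genes described here make cholesterol and fatty acids, and were measured in human breast cancer cells after depletion of TARBP2, an RNA-binding protein that partners Dicer and also binds structured stretches of messenger RNA. The members are 33 genes taken from a list: 18 enzymes of the sterol route, 6 regulators and 9 enzymes of the fatty acid route. They were taken by name, with earlier results of these data known. All 33 were measured, among 11271 genes tested on Illumina BeadChips, with the brightest probe of each gene standing for it. SREBF2 was detected on the control arrays alone. The cells were MDA-LM2 shDicer, a metastatic derivative of the MDA-MB-231 breast cancer line that carries a hairpin against Dicer, so both groups share the hairpin. TARBP2 knockdown comprised 2 arrays, siTARBP2-1 and siTARBP2-2, which the design text calls independent siRNAs. The control comprised 2 arrays, siControl-1 and siControl-2, which the labels call control siRNA and the design text calls mock-transfected. RNA was taken 48 h after lipid-mediated transfection. The sources used here do not say whether the line is 1 clone or a pool, nor whether the samples came from separate cultures. The p-values then reflect only how far these samples vary, and that variation may be technical.

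Cholesterol is built from acetyl-CoA through mevalonate, the isoprenoid farnesyl diphosphate and squalene, and the sterol ring is then trimmed step by step. Fatty acids start from the same acetyl-CoA, which citrate or acetate supplies in the cytosol, and are lengthened and desaturated in the endoplasmic reticulum. The membrane-bound transcription factors SREBP-1 and SREBP-2 drive both routes: SCAP escorts them to the Golgi for cleavage when sterols are low, and the INSIG proteins hold SCAP back when sterols are high. SREBP-1 is known more for fatty acid genes and SREBP-2 more for cholesterol genes.

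Arrays were alike in quality, with 39.1% to 40.8% of probes detected and median signals of 68.1 to 71.0. With so few arrays precision is limited: an exact permutation test of 2 against 2 cannot give a p below 0.333. Calls therefore rest on the variance model that limma shares across genes. All 5 listed markers of the parent line (VIM, CD44, CAV1, MSN and AXL) were detected on all 4 arrays, and the luminal markers ESR1, PGR and FOXA1 on none. Of 10 markers of blood, endothelium and fibroblasts, 6 were not detected on any array, PTPRC, CDH5 and DCN among them. CD14 of blood, PECAM1 of endothelium and LUM of fibroblasts were detected on all 4 arrays, and VWF of endothelium on 1. The summed normalized signal of the 10 was 608 and 590 in knockdown and 530 and 518 in control. Of the 3 that passed the detection filter LUM was called, at a log2 signal of 5.85 to 6.44 and a log2 fold change of 0.44 (limma adjusted p = 0.0271). CD14 gave 0.21 (limma adjusted p = 0.0697) and PECAM1 -0.08 (limma adjusted p = 0.694), neither called. The samples are of a cultured line, and what gives these signals was not tested. TARBP2 itself read 6.11 (siTARBP2-1) and 5.79 (siTARBP2-2) on the log2 scale, where the controls read 9.27 and 9.25. Its log2 fold change was -3.31 with a standard error (SE) of 0.11 (limma adjusted p = 2.07e-10).

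Lipid synthesis genes moved modestly, and more of them rose than fell. Of the 33 genes 10 were called higher in knockdown (30.3%) and 2 lower (6.06%), while 21 did not pass the test. Among all genes tested 34.2% were called, 17.0% higher and 17.1% lower, at a limma adjusted p under 0.05. The knockdown arrays lay wholly above the control arrays for 18 members (54.5%) and wholly below for 7 (21.2%), against 32.5% and 34.5% of all genes (67.0% in either direction). Of the members 23 had a fold change above 0, called or not, against 48.5% of all genes. The median log2 fold change of the members was 0.09, against -0.0087 over all genes. Their median absolute log2 fold change was 0.14, close to the 0.15 of all genes. The 10 rises lay between 0.18 and 0.45, and the genes not called lay between -0.27 and 0.16. These steps are small. The control arrays differed by a median of 0.04 across members (at most 0.24), and the siRNA arrays by a median of 0.07 (at most 0.37). Across all genes the control arrays differed by a median of 0.08. The 10 that rose were ACAT2, FDPS, SQLE, EBP and DHCR7 of the sterol route, the regulator SREBF1, and ACLY, ACSS2, ACACA and SCD of the fatty acid route. TM7SF2 and FADS1 fell. Without siControl-1 or siControl-2 fewer members were called higher, and fewer of all genes were too. Since RNA came from whole cultures, a small change in every cell and a larger one in some cells cannot be told apart.

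**Figure D1:**
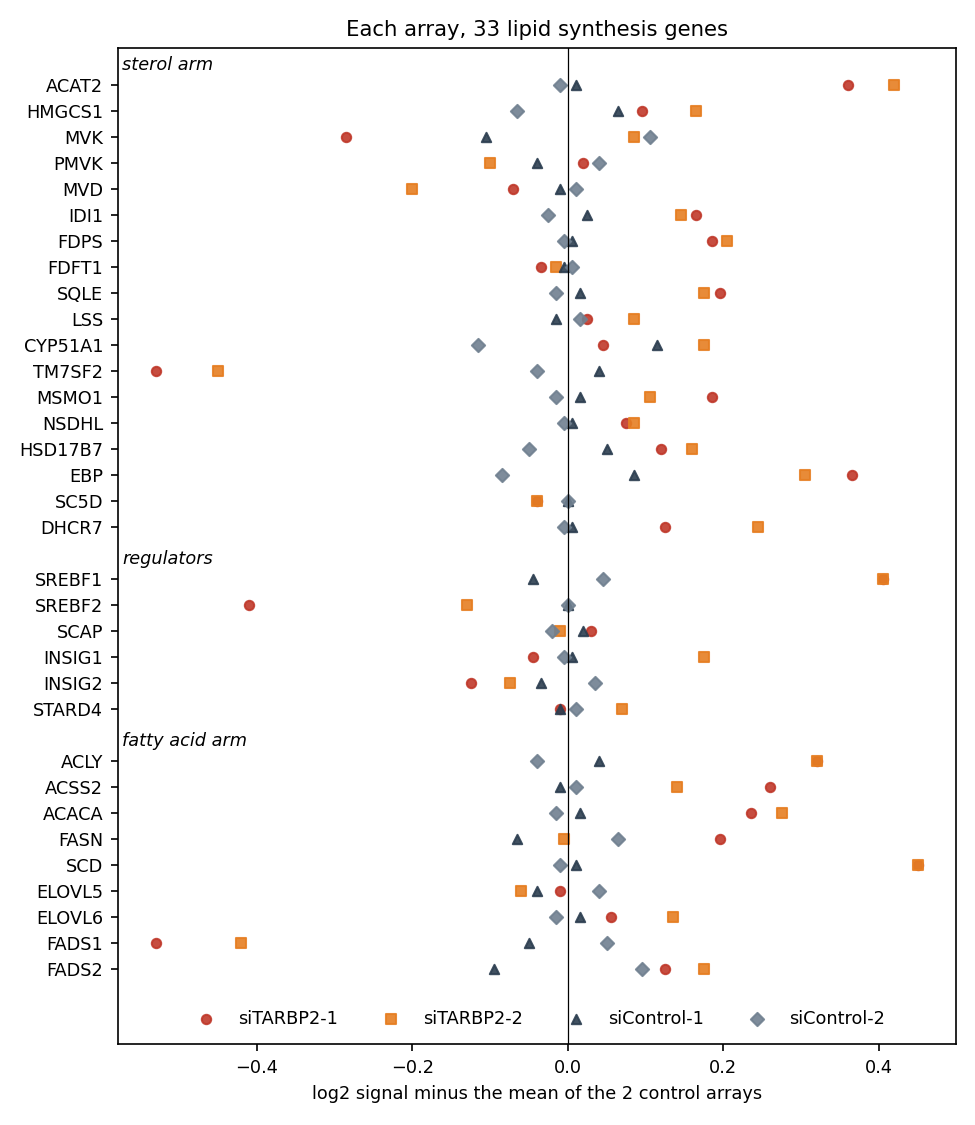
Each point is 1 array's log2 normalized signal for a member minus the mean of the 2 control arrays. Circles and squares are siTARBP2-1 and siTARBP2-2, and triangles and diamonds siControl-1 and siControl-2. For SCD, SREBF1 and ACLY the siRNA arrays coincide to the right of both controls, and for TM7SF2 and FADS1 both siRNA arrays lie to the left.

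The promoters of members that moved and of SREBF2 are shown because most members hold a promoter motif that the choice of genes did not use. Sequences are the 250 bases before the RefSeq gene start in GRCh38.p14, 5′ to 3′ on the gene's strand. Capitals mark the CCAAT box, the usual site of the factor NF-Y, on either strand (written CCAAT or ATTGG), and in SREBF2 also the motif TCACNCCAC, the form of the sterol regulatory element searched here. SCD lies at chr10:100346983-100347232 (plus strand), EBP at chrX:48521558-48521807 (plus), TM7SF2 at chr11:65111622-65111871 (plus), FADS1 at chr11:61817004-61817253 (minus) and SREBF2 at chr22:41832855-41833104 (plus).
SCD: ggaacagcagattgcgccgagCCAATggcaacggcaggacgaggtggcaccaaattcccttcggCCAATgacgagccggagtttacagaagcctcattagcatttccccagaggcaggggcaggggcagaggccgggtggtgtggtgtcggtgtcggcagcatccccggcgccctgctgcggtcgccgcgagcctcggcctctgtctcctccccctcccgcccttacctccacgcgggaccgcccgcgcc
EBP: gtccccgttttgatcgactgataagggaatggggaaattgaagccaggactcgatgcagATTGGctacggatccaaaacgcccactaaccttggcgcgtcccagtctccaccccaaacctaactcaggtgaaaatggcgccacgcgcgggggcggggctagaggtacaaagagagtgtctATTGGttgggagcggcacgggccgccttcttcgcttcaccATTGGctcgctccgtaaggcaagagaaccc
TM7SF2: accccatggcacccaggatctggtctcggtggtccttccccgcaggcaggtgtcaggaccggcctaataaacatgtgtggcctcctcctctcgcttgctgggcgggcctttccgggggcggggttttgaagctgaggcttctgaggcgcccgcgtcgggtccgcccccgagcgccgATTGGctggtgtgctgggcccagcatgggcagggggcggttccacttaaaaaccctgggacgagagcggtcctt
FADS1: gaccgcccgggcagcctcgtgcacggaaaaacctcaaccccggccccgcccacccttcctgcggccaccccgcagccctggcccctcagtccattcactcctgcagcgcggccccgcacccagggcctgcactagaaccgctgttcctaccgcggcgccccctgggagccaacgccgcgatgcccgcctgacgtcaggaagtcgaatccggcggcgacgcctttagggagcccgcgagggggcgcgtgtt
SREBF2: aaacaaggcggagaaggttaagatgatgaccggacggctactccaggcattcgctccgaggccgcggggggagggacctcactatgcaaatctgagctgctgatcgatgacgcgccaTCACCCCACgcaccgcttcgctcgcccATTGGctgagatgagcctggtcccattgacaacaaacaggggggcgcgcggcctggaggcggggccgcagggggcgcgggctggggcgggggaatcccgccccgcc
The SCD stretch holds 2 CCAAT boxes, the EBP stretch 3 and the TM7SF2 stretch 1, while FADS1 has none of the motifs searched.

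RefSeq windows from 250 bases before to 50 bases after the start were matched for 29 of the 33 members. ACAT2, FDFT1, SQLE and FASN are named only. A gene counted if any of its windows matched, and some members have 2 or 3 windows. A CCAAT box stood in 22 of the 29 (75.9%), against 44.1% of 9101 tested genes with a window. Counted by window rather than by gene, it stood in 34.6% of all 35116. It stood in 7 of 8 genes called higher, 1 of 2 called lower and 14 of 19 not called, so genes that did not pass the test carried it too. By role, 13 of 15 sterol enzymes, 3 of 6 regulators and 6 of 8 fatty acid enzymes carried it. TCACNCCAC matched only SREBF2 among the 29 (3.45%), 133 bases before the start, against 1.56% of the tested genes and 1.13% of all windows. The E-box CACGTG, read the same on both strands, stood in 5 of 29 members (17.2%), against 7.26% of all windows and 12.8% of the tested genes. No CCAAT match in a member overlapped a match of another motif. A match is a description of letters and not of binding.

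**Figure D2:**
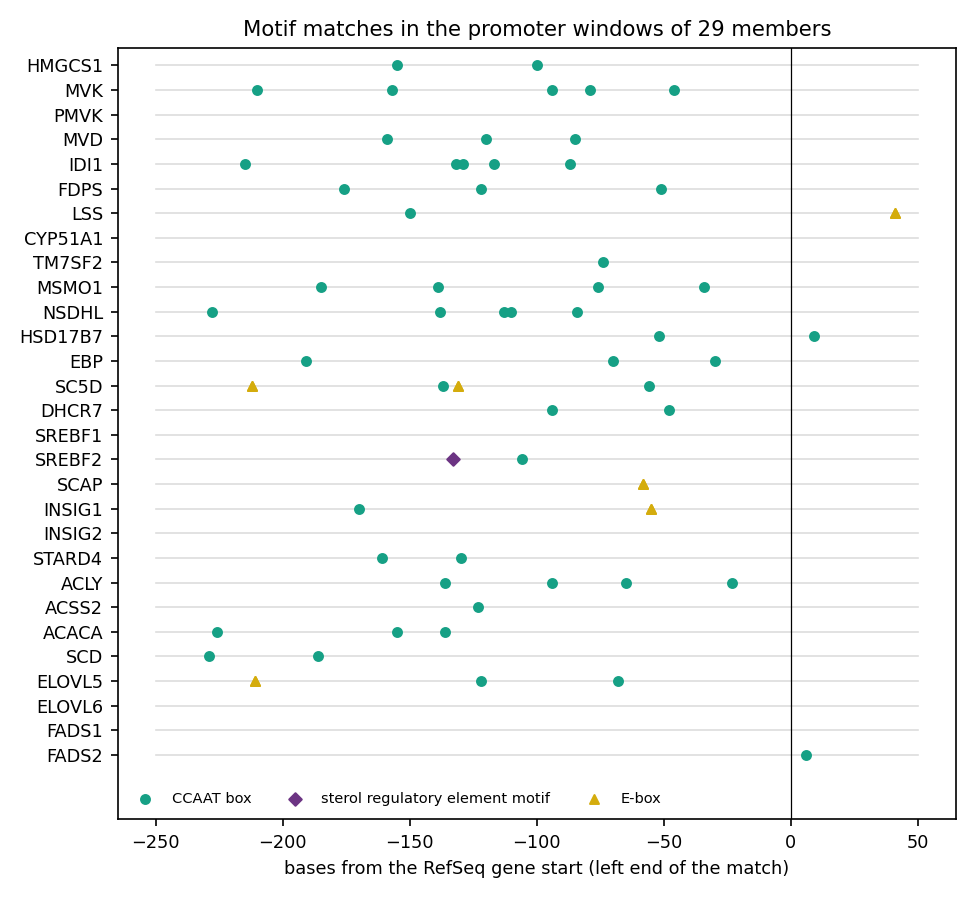
Positions of motif matches in the windows of 29 members, in bases from the RefSeq gene start (left end of each match). Circles are CCAAT boxes, the diamond is TCACNCCAC in SREBF2 and triangles are CACGTG; 22 of the 29 members have at least 1 circle. All windows of a gene share a row, so a box in overlapping windows can appear more than once.

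At the entry of the sterol route ACAT2, the cytosolic thiolase that joins acetyl-CoA units, rose most among the sterol enzymes. Its probe read 11.82 and 11.88 (log2 signal, siTARBP2-1 first) in knockdown and 11.47 and 11.45 in control. Both knockdown arrays were above both controls. The log2 fold change was 0.39 (SE 0.05), or 1.31-fold (limma adjusted p = 1.01e-04), and a dimmer probe gave 0.65. The mevalonate steps that follow gave no call. HMGCS1, the HMG-CoA synthase, gave 0.13 (limma adjusted p = 0.164), and the mevalonate and phosphomevalonate kinases MVK and PMVK gave -0.10 and -0.04. MVK was also the member whose siRNA arrays lay furthest apart, by 0.37. MVD, the decarboxylase, gave -0.14, and the isomerase IDI1 gave 0.16 (limma adjusted p = 0.0555).

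FDPS, which makes farnesyl diphosphate, read 9.70 and 9.72 in knockdown against 9.52 and 9.51 in control, for a log2 fold change of 0.19 (SE 0.06, limma adjusted p = 0.0285). FDFT1, the squalene synthase that commits farnesyl diphosphate to sterols, gave -0.03 (95% interval -0.14 to 0.08). SQLE, the squalene epoxidase, read 10.30 and 10.28 against 10.12 and 10.09, or 0.18 (SE 0.06, limma adjusted p = 0.0300). For FDPS and SQLE the groups did not overlap, but the rises are small. A dimmer SQLE probe gave 0.03 (limma adjusted p over all detected probes = 0.846). The call of FDPS ended without any 1 array (limma adjusted p from 0.0648 to 0.119), as did that of SQLE (0.0684 to 0.147).

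After squalene, 1 enzyme fell while a pair of later ones rose. TM7SF2, a sterol C14 reductase, read 7.27 and 7.35 in knockdown against 7.84 and 7.76 in control. Both knockdown arrays lay below both controls, with a log2 fold change of -0.49 (SE 0.09), or 1.40-fold lower (limma adjusted p = 9.46e-04). EBP, the sterol isomerase that shifts a ring double bond, read 10.11 and 10.05 against 9.83 and 9.66. The groups did not overlap, and the log2 fold change was 0.34 (SE 0.07), or 1.26-fold (limma adjusted p = 0.00219). DHCR7, the last reductase before cholesterol in the route through 7-dehydrocholesterol, read 9.73 and 9.85 against 9.61 and 9.60, or 0.19 (SE 0.07, limma adjusted p = 0.0412). DHCR7 was the nearest of the calls to the threshold: a second probe gave 0.07 (limma adjusted p over all detected probes = 0.514). Its call ended without siTARBP2-2 (0.236), without siControl-1 (0.122) and without siControl-2 (0.148).

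The enzymes between these steps did not pass. The cyclase LSS, which closes the sterol ring, gave 0.06, and CYP51A1, the lanosterol demethylase, gave 0.11. Of the enzymes that strip the remaining methyl groups, MSMO1 gave 0.14 (limma adjusted p = 0.0659), NSDHL 0.08 and HSD17B7 0.14 (limma adjusted p = 0.0911). HSD17B7 has pseudogene copies close to it, which a probe may not tell apart. SC5D, a desaturase, gave -0.04. A dimmer MSMO1 probe, for NM_006745, gave 0.26 (limma adjusted p over all detected probes = 0.0391), while the third gave -0.00. In all, 5 of 18 sterol enzymes rose (27.8%) and 1 fell (5.56%), against 17.0% and 17.1% of all genes. The median log2 fold change of the 18 was 0.12. Leaving out any 1 array gave fewer rises among the sterol enzymes, and fewer among all genes.

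**Figure D3:**
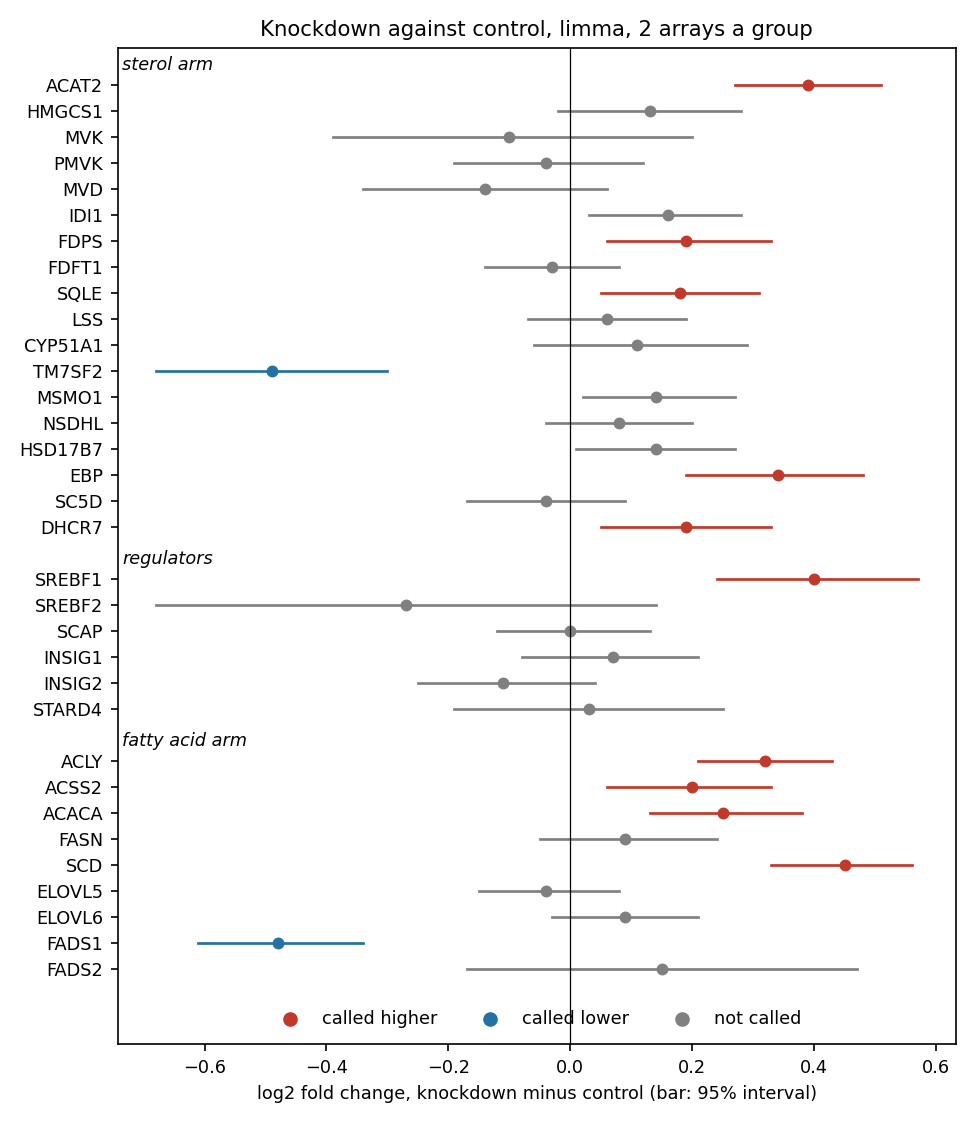
Log2 fold change of each member, knockdown minus control (point), with its 95% interval from limma (bar), 2 arrays a group. Colours mark the 10 genes called higher, the 2 called lower and the 21 not called; SCD has the highest value at 0.45 and TM7SF2 the lowest at -0.49.

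Of the regulators only SREBF1, the gene of SREBP-1, was called. It read 8.45 on both knockdown arrays, against 8.00 and 8.09 in the controls. The groups stood clear of each other, with a log2 fold change of 0.40 (SE 0.08), or 1.32-fold (limma adjusted p = 0.00130). A dimmer probe, for NM_004176, gave 0.52. SREBF2, the gene of SREBP-2, read 4.97 and 5.25 in knockdown against 5.38 in both controls. It was detected on the control arrays alone and passed the detection filter through them, so its knockdown signal is only bounded. No smallest fold change is drawn from that bound, since the filter kept SREBF2 through its higher group. The 95% interval of its log2 fold change, -0.68 to 0.14, includes no change (limma adjusted p = 0.30). SCAP gave 0.00 (95% interval -0.12 to 0.13), so a change of the size seen for SREBF1 lies outside its interval. INSIG1 read 11.21 and 11.43 against 11.26 and 11.25, with the control arrays between the siRNA arrays, and gave 0.07. INSIG2 gave -0.11 and STARD4, a sterol carrier in the cytosol, gave 0.03. The median of the 6 regulators was 0.02.

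Of the fatty acid enzymes ACLY, ACSS2, ACACA and SCD rose and FADS1 fell. ACLY, which cuts citrate into acetyl-CoA, read 12.40 on both knockdown arrays against 12.12 and 12.04 in the controls. The groups did not overlap, and the log2 fold change was 0.32 (SE 0.05), or 1.25-fold (limma adjusted p = 3.28e-04). That probe was joined to NM_198830, and the probe of NM_001096 gave 0.04 (limma adjusted p over all detected probes = 0.614), so the probes of this gene disagree. The mean of both gave 0.18 (limma adjusted p = 0.0107). ACSS2, which makes acetyl-CoA from acetate, read 10.58 and 10.46 against 10.31 and 10.33, or 0.20 (SE 0.06, limma adjusted p = 0.0265). Both of its knockdown arrays were above the controls, siTARBP2-1 by more. Its call ended without siTARBP2-1 (limma adjusted p = 0.169), without siControl-1 (0.113) and without siControl-2 (0.0883), and a second bright probe gave 0.13.

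ACACA, the acetyl-CoA carboxylase that makes malonyl-CoA, read 10.55 and 10.59 against 10.33 and 10.30. Both knockdown arrays exceeded both controls, with a log2 fold change of 0.25 (SE 0.06), or 1.19-fold (limma adjusted p = 0.00444), and 0.19 on a second probe. FASN, the synthase that builds palmitate, read 12.11 and 11.91 against 11.85 and 11.98. Its siTARBP2-2 array lay between the controls, and the log2 fold change of 0.09 was not called (limma adjusted p = 0.321).

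The desaturases parted. SCD, which makes monounsaturated fatty acids, read 11.66 on both knockdown arrays against 11.22 and 11.20 in the controls. Its log2 fold change of 0.45 (SE 0.05) was the highest among the members (1.36-fold, limma adjusted p = 2.79e-05). FADS1, the delta-5 desaturase of polyunsaturated fatty acids, read 10.80 and 10.91 against 11.28 and 11.38. Both knockdown arrays were below both controls, with a log2 fold change of -0.48 (SE 0.06), or 1.39-fold lower (limma adjusted p = 5.78e-05). FADS2, the delta-6 desaturase whose gene neighbours FADS1 on chromosome 11, was dim at 5.97 and 6.02 against 5.75 and 5.94 and gave 0.15 (95% interval -0.17 to 0.47). The elongases ELOVL5 and ELOVL6 gave -0.04 and 0.09. In all, 4 of 9 fatty acid enzymes rose (44.4%) and 1 fell (11.1%), against 17.0% and 17.1% of all genes. The median log2 fold change of the 9 was 0.15.

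The median shifts of the sterol and fatty acid routes lay close together. At 0.12 and 0.15 they differed by 0.03, and each holds 1 gene that fell. With siTARBP2-1 alone the fatty acid median was higher by 0.11, and with siTARBP2-2 alone by 0.01. ACLY and ACSS2 make acetyl-CoA for both routes. Without them the fatty acid route had 2 of 7 higher (28.6%, against 17.0% of all genes) and a median of 0.09, below that of the sterol route. Without siControl-1 the order also turned, with medians of 0.17 for the sterol and 0.11 for the fatty acid route. With the series matrix values the medians were 0.11 and 0.10. The order of the routes is therefore not settled. No test was run between the routes, whose genes share the same arrays.

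Taken singly, each siRNA was compared with the same 2 controls, with the spread taken from the control arrays and the lone array assumed to vary like them. With siTARBP2-1, 9 members were called higher and 2 lower, where 12.5% and 12.3% of all genes were. With siTARBP2-2, 7 members were called higher and 2 lower, where 13.6% of all genes were called in each direction. SCD gave 0.45 with each siRNA, SREBF1 0.40 and 0.41, and ACLY 0.32 with each. ACAT2 gave 0.36 and 0.42, EBP 0.37 and 0.30, TM7SF2 -0.53 and -0.45, and FADS1 -0.53 and -0.42. FASN gave 0.20 with siTARBP2-1 (limma adjusted p = 0.0487) and -0.01 with siTARBP2-2, and DHCR7 gave 0.13 and 0.25. Between the siRNAs 0 of 33 members differed at the limma adjusted threshold, where 0.0177% of all genes did, and 2 members had an unadjusted p under 0.05. These were INSIG1 at -0.22 and FASN at 0.21, siTARBP2-1 minus siTARBP2-2 (limma adjusted p = 0.796 and 0.836). With no trend in the variance 0 members were called with either siRNA, and 602 and 797 of the 11271 genes were.

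**Figure D4:**
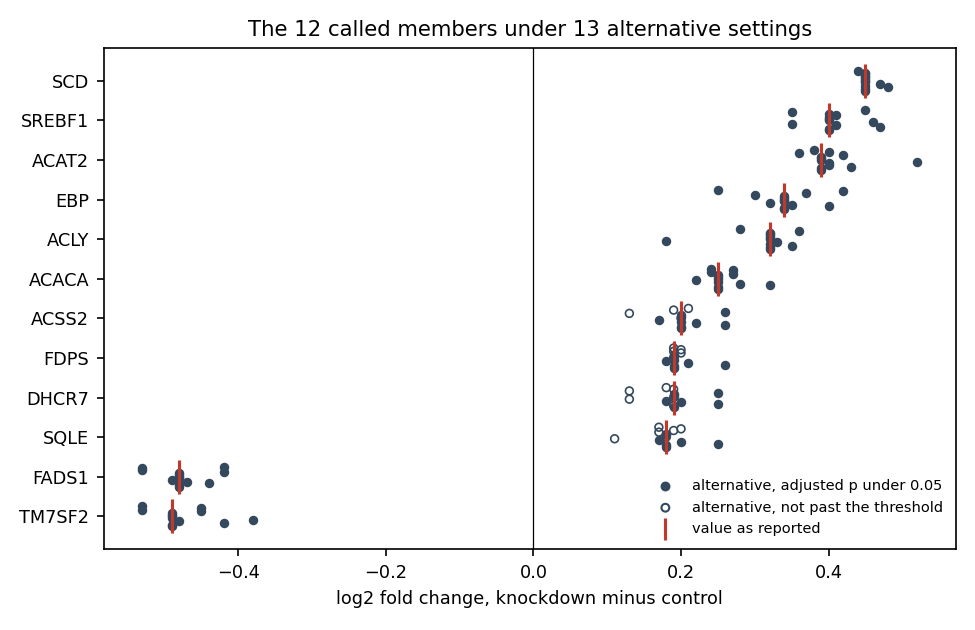
Log2 fold changes of the 12 called members as reported (vertical marks) and under 13 alternative settings (points); filled points passed the adjusted threshold and open points did not. Only ACSS2, FDPS, DHCR7 and SQLE have open points, and no point changes sign.

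Of the 12 calls, 8 held under all 13 alternative settings: ACAT2, TM7SF2, EBP, SREBF1, ACLY, ACACA, SCD and FADS1. The other 4 were those of FDPS, SQLE, DHCR7 and ACSS2. No setting took the second ACLY probe alone, which gave 0.04 (limma adjusted p over all detected probes = 0.614). In the authors' deposited table, which marks up-regulated accessions, 5 of the 33 genes carry a mark: ACAT2, EBP, ACLY, ACACA and SCD. Of all accessions, detected or not, 3.12% carry one. A gene was counted if any of its accessions is marked, so the count of genes and this share are unlike measures. The authors' deposited table gives ACAT2 0.36, EBP 0.30, ACLY 0.33 (NM_198830), ACACA 0.25 (NM_198836) and SCD 0.47. For the unmarked entries of ACLY and ACACA that table gives 0.05 and 0.08. These deposited values come from the same arrays and served to name the probes. Likeness to the fit here is therefore no independent support. For SREBF1 the authors' deposited table gives 0.11 for NM_001005291, joined to a pair of probes of which 1 was not detected on any array here, and 0.20 for NM_004176. For the members that fell, the authors' deposited table gives FADS1 -0.49 and TM7SF2 -0.28, where the fit here gave -0.48 and -0.49. Deposited fold changes are on a scale fitted here by an inverse hyperbolic sine. Their sizes are therefore not directly comparable with the log2 fold changes.

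Around the synthesis genes, the largest shifts lay in the lists of sterol-regulated degradation and of sterol export. In 7 lists of neighbouring pathways stood 117 genes, of which 106 were measured. Of these 17 were called higher and 17 lower (16% each), close to the 17.0% and 17.1% of all genes. Of the 17 lower, 16 were detected in both groups. Among 17 genes of sterol uptake, transport, esterification and export 5 rose (29.4%) and 1 fell (5.88%), with a median of 0.04. ABCA1, the pump that exports cholesterol to apolipoprotein A-I, read 10.73 and 10.75 in knockdown against 9.58 and 9.65 in control. Both knockdown arrays stood far above the controls, with a log2 fold change of 1.13 (SE 0.06), or 2.18-fold (limma adjusted p = 4.61e-08). OSBPL5, a lipid transfer protein of the OSBP family, rose by 0.82 (limma adjusted p = 2.55e-06) and by 0.93 on a second probe. ABCG1, a sterol exporter, rose by 0.41 (limma adjusted p = 0.00243).

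The nuclear receptors of oxysterols split. They are named after their values were seen. NR1H3, which encodes LXR-alpha, rose by 0.36 (limma adjusted p = 0.00270), and NR1H2, which encodes LXR-beta, gave -0.27 (limma adjusted p = 0.0185). The NR1H2 call ended under 5 of 13 settings.

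In the list of SREBP cleavage and sterol-regulated degradation 4 of 16 measured genes fell and 1 rose, against 17.1% and 17.0% of all genes. The gene that rose, TMUB1, at 0.22 (limma adjusted p = 0.0292), is named after its value was seen and passed in 9 of 13 settings. ERLIN2, which with ERLIN1 forms a scaffold in the endoplasmic reticulum membrane, read 7.52 and 7.36 in knockdown against 9.25 and 9.18 in control. That is far below the controls on both arrays, with a log2 fold change of -1.77 (SE 0.08), or 3.42-fold lower (limma adjusted p = 7.19e-09). Dimmer ERLIN2 probes, detected on 3 arrays and on 1, gave -0.43 and -0.18, and ERLIN1 gave -0.06 (limma adjusted p = 0.530). PAQR3, a Golgi protein described as an anchor of SCAP and SREBP, read 8.88 and 8.92 against 10.00 and 9.87, and fell by 1.04 on the log2 scale (limma adjusted p = 1.93e-07). SPRING1, which SREBP cleavage needs, fell by 0.42 on the log2 scale (limma adjusted p = 3.78e-04). The fourth, MBTPS1, the site-1 protease, gave -0.17 (limma adjusted p = 0.0357), was named after its value was seen, and passed in 6 of 13 settings.

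Among 18 genes of citrate supply, elongation and activation of fatty acids 4 rose (22.2%) and 0 fell, against 17.0% and 17.1% of all genes. ACSL5, which activates long-chain fatty acids with coenzyme A, rose by 0.64 (limma adjusted p = 4.16e-06). ELOVL7, an elongase, rose by 0.32, and SCD5, a second stearoyl-CoA desaturase, by 0.24. In the isoprenoid branch 1 of 14 rose (7.14%) and 3 fell (21.4%). Those that fell were RCE1, the protease of prenylated proteins, at -0.52, COQ2 of ubiquinone synthesis at -0.27 and FNTB, a farnesyltransferase subunit, at -0.24.

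Of all genes 17.0% were called higher and 17.1% lower. In glycerolipid synthesis 3 of 14 rose (21.4%) and 4 were called lower (28.6%), 3 of them detected in both groups. The acyltransferase AGPAT4 rose by 0.64, while the phosphatase LPIN2 gave -0.34 and GPAM, the mitochondrial acyltransferase that starts glycerolipid synthesis, -0.26. The call not so supported, that of AGPAT3, came from a probe that was detected on the control arrays alone and passed the filter through the group where it is high. It is named for that. In mitochondrial fatty acid synthesis, a separate bacterial-type pathway, 1 of 8 rose and 2 fell: MCAT gave 0.42, CBR4 -0.32 and LIPT1 -0.25. In fatty acid oxidation 2 of 19 rose (10.5%) and 3 fell (15.8%), with ACAA2 at 0.35, ACADVL at 0.24 and ACADM at -0.23. The calls of FNTB, ELOVL7, SCD5, GPAM, LPIN2, MCAT, LIPT1 and ACADM each ended under at least 1 alternative setting.

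**Figure D5:**
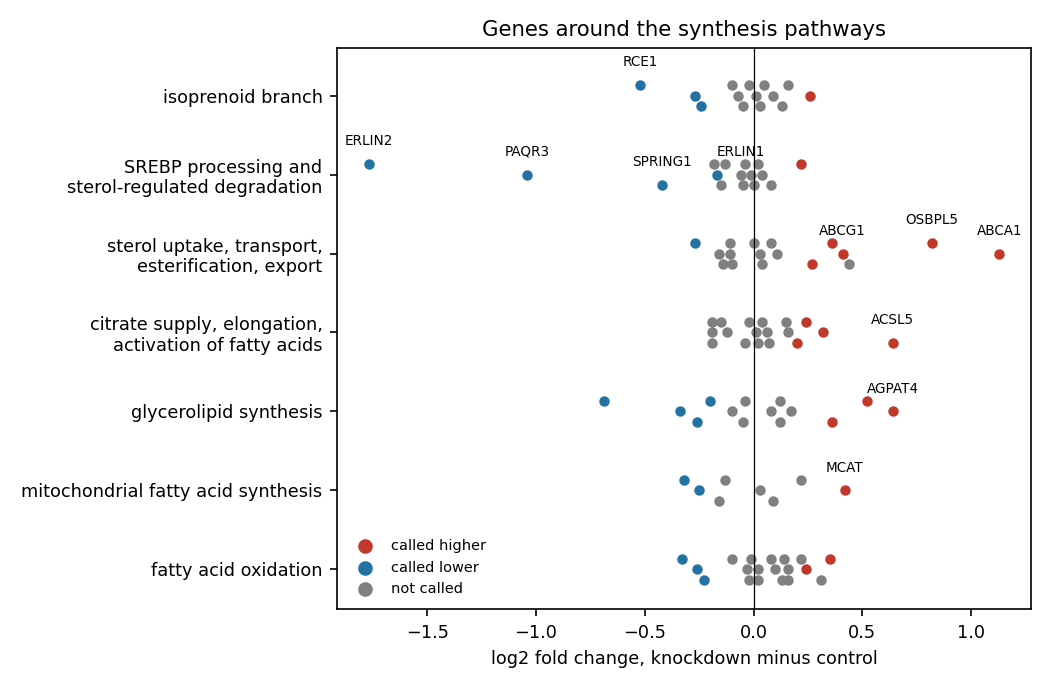
Log2 fold changes, knockdown minus control, of 106 measured genes in 7 neighbouring pathways, 1 row a pathway; colours mark genes called higher, called lower and not called. ERLIN2 at -1.77 and ABCA1 at 1.13 lie furthest out, beyond every synthesis gene.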

How the data were processed

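RNA of 2 TARBP2 knockdown and 2 control arrays was compared, grouped by the transfection labels. The authors deposited probe intensity values not yet normalized, in linear units, with detection p-values alongside, per the file headers. The deposited series matrix holds normalized intensity values whose columns stand crosswise to those headings (r of 0.99974 to 0.99997 with the same-number array of the other group). TARBP2 falls in the non-normalized columns headed siTARBP2, which were used. Another deposited table holds a log2-like fold change per accession, on a scale fitted here by an inverse hyperbolic sine, and a mark for up-regulation, per the file headers. The submitters' processing notes name lumi, with no version given in the sources used here. Aligner and build do not apply.

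No probe annotation was used here. Probes were joined to accessions by matching the deposited fold changes within 1e-09, which joined 39330 of 39747 accessions (18 to 1 probe and 7 to a group when values were shifted by 1e-06). RefSeq gave 27742 probes a symbol. Groups of 2 to 4 probes share an accession.

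Intensities were corrected and quantile-normalized with neqc (offset 16) of limma 3.58.1 in R 4.3.3. Probes with detection p under 0.01 on at least 2 arrays were kept (19295), with the brightest per gene. lmFit and eBayes with a trend were used, two-sided, with Benjamini-Hochberg adjustment over 11271 genes and a threshold of 0.05; single siRNAs were fitted as 3 groups. The alternatives were other filters, scalings, probe summaries and variance models, a replicate block, and leaving out each array. Same-numbered arrays did not deviate together (r = 0.00 across genes). That value cannot show whether they were handled together, and the main fit did not pair them.

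The members and gene lists were chosen with earlier results of these data known. Named are TARBP2, every member, and in each related list the 3 genes with the smallest p, with ERLIN1 and ERLIN2. Outside this rule NR1H3, NR1H2, TMUB1, MBTPS1 and AGPAT3 are also named, as said where they appear.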

Additional observations from a re-analysis of the deposited data

How the results depend on the processing

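The 10 rises and 2 falls among the 33 genes were recomputed under 13 settings, and no member called changed sign. Calls of 8 members held in all of them. Without a variance trend 6 members rose (2 sterol enzymes), and among all genes 1404 rose where 1921 did before. The calls lost were FDPS (limma adjusted p = 0.0680), SQLE (0.0817), DHCR7 (0.105) and ACSS2 (0.0986). SQLE (0.247) and DHCR7 (0.120) were lost with the mean of probes, and DHCR7 with no detection filter (0.0619). Leaving out 1 array gave 6 to 9 rises, 2 to 3 of them sterol enzymes, with 6 without siControl-1 or siControl-2. Without siTARBP2-2, FASN (0.0472) and MSMO1 (0.0476) passed. IDI1 passed with median scaling (0.0383), cyclic loess (0.0312) and the mean of probes (0.0437).

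Median scaling moved the median of all genes from -0.0087 to 0.0431, a shift smaller than any called rise. It left 1148 genes lower over the whole array, so 66.2% of calls were higher against 49.9%, and 9 related genes lower against 17. The medians of the sterol and fatty acid routes were then 0.18 and 0.21. The median of the SREBP cleavage list went from -0.06 to 0.01 and that of the isoprenoid list from -0.01 to 0.06, so neither has a settled direction. Leaving out 1 array gave sterol medians of 0.07 to 0.17, fatty acid medians of 0.11 to 0.21 and 1263 to 1558 genes lower. The sterol median was 0.07 with the regulators added, and the fatty acid route had a median of 0.10 from the series matrix, and 2 rises and a median of 0.09 without ACLY and ACSS2. Without a variance trend 11 related genes fell, and 0 members were called higher and 0 lower with either siRNA alone (limma; 602 and 797 of all 11271 genes were called, and 10 and 9 members had an unadjusted p under 0.05). With no detection filter 1 member was lower with siTARBP2-2. A replicate block gave 10 rises and 2 falls, with every member call kept. Whether same-numbered samples form pairs is not known.

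Low signals near background limit SREBF2, FADS2 and MVK. The cause of the changes between settings was not tested.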
